A study of Mus musculus with 6 samples.

Results

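Heparan sulfate is a sugar chain that cells build on a small set of carrier proteins, and 10 of its genes are described here: the polymerases Ext1 and Ext2, the sulfotransferases Ndst1, Ndst2, Hs2st1, Hs6st1, Hs3st1 and Hs3st6, and the cell surface carriers Sdc1 and Sdc4. They were chosen by name for their function, with earlier results of the same comparison in view, out of 35275 genes in the table, and each of the 10 matched 1 Ensembl identifier. The libraries came from sorted H2B-GFP-positive keratinocytes of CD1 IGS mouse back skin at E16.5, after doxycycline chow from E14.5. There were 3 libraries labelled control and 3 labelled K10rtTA;TREspastin, called K10-spastin here. In the latter the keratin 10 promoter, active in suprabasal cells, drives the doxycycline-dependent activator rtTA, which turns on a nuclear green fluorescent protein and the microtubule-severing enzyme spastin. The protocol names the transgenes K10-rtTA, TRE-H2B-GFP and TRE-Spastin for the dams and does not say which of them a control embryo carried, and the differences below are therefore those between the labelled groups. The 6 RNA samples were independent per the labels, but how many embryos stand behind each is not stated there, and p-values therefore measure only the spread between these samples, which may be technical.

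A heparan sulfate chain starts on a short linker of sugars on a serine of the carrier protein. The enzyme pair of Ext1 and Ext2 then lengthens it with alternating glucuronic acid and N-acetylglucosamine. In the Golgi the Ndst enzymes exchange acetyl for sulfate groups on the glucosamine nitrogen, which prepares the chain for 2-O-sulfation by Hs2st1, 6-O-sulfation by Hs6st enzymes and, last and rarest, 3-O-sulfation by Hs3st enzymes. The pattern of sulfates decides which growth factors, morphogens and proteases a chain can hold, and in epidermis syndecan-1, the product of Sdc1, is the main carrier of keratinocytes.

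Values are FPKM, fragments scaled by gene length and by the number of mapped fragments, so levels can be compared between genes. Read from the steps between low values, library depth was 16.01 to 22.5 M (mega) fragments, at which 3 fragments in a transcript of 1 kb were worth 0.134 to 0.187 FPKM. Spast, the induced gene, read 21.2 to 24.0 FPKM across the controls, against 1431, 639 and 213 FPKM across K10-spastin 1 to 3. A gene was tested where its mean over the 6 libraries reached 1 FPKM, and of the 11071 such genes limma called 569 higher and 653 lower in K10-spastin at an adjusted p under 0.05, and the median log2 change of all of them was -0.09.

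Transcripts of 4 of the 6 sulfotransferase genes, Ndst1, Hs2st1, Hs6st1 and Hs3st6, fell in K10-spastin, and so did those of the syndecan Sdc4. Neither polymerase gene was called, nor was Sdc1. Of the 10 genes, 9 reached the level for testing, so 5 of 9 were called lower, and none was called higher. Over all genes tested, 11.0% were called, 5.14% higher and 5.90% lower, and since the 10 genes were chosen with this comparison in view, nothing is read from their share. For the same reason the adjusted p-values of these genes, which are limma's over all genes tested with Benjamini-Hochberg adjustment, say where each gene stands in that fit and are not an independent test. The median log2 change of the 9 genes was -0.59, and 7 of the 9 values lay below 0, against 58.4% of all tested genes. In 8 of the 9 the libraries of the groups did not overlap, which was so in 40.4% of all tested genes. It was so in each of the 1222 called genes, and hence in the 5 called here. Each of the 9 had a group mean of at least 1 FPKM in both groups, so none passed through 1 group alone. Log2 changes here and below are K10-spastin minus control ± SE on the log2(FPKM + 1) scale, on which changes of low genes look smaller than they are. In sorted cells measured in bulk, fewer cells of a type and less RNA per cell cannot be told apart.

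**Figure D1:**
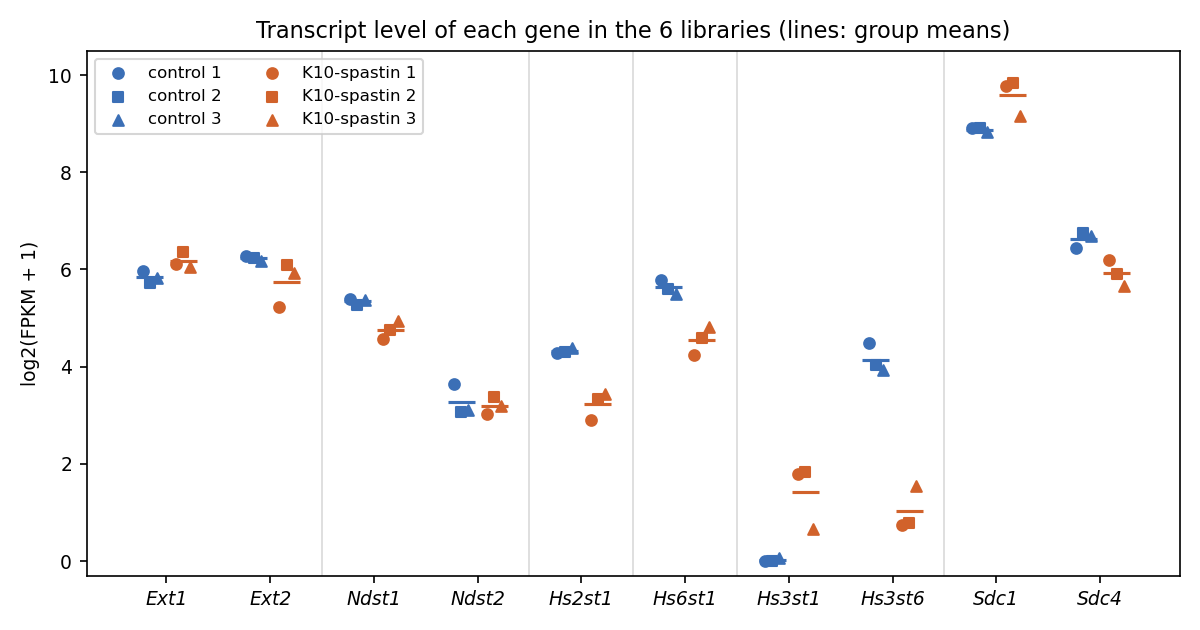
Level of each of the 10 genes as log2(FPKM + 1), with control libraries in blue, K10-spastin libraries in orange, 1 marker shape per replicate number and a line at each group mean of the plotted values. Control and K10-spastin points are apart for Hs3st6, Hs6st1 and Hs2st1, overlap for Ndst2, and Sdc1 is the highest of the 10 in every library.

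**Figure D2:**
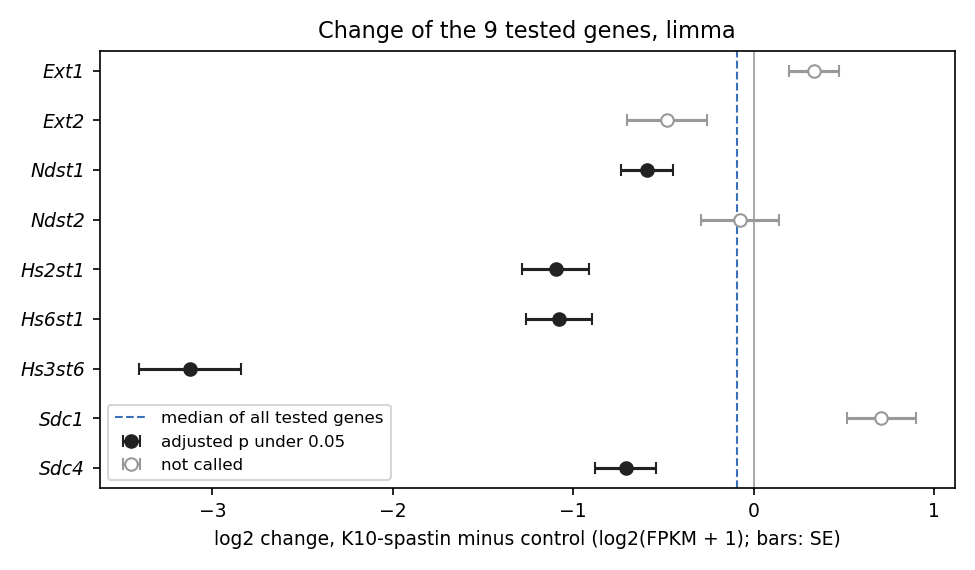
Log2 change of the 9 tested genes, K10-spastin minus control, with bars of 1 SE (n = 3 libraries a group), filled where the limma adjusted p is under 0.05. Hs3st6 lies farthest to the left at -3.13, and the dashed line is the median of all tested genes at -0.09.

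The polymerases lengthen the chain, and neither was called. Ext1 (ENSMUSG00000061731), the subunit that carries most of the polymerising activity, read 61.5, 51.6 and 56.0 FPKM across controls 1 to 3, against 68.2, 80.7 and 65.4 FPKM across K10-spastin 1 to 3. All K10-spastin libraries lay above the controls, by a narrow margin, and the gene was not called (log2 change 0.33 ± 0.14, limma adjusted p = 0.148). Ext2 (ENSMUSG00000027198), the partner that Ext1 needs for full activity, read 76.9, 74.1 and 71.2 FPKM across the controls, against 36.7, 67.4 and 59.5 FPKM across K10-spastin. K10-spastin 1 was the lowest by far, and the other two K10-spastin libraries lay just below the controls (log2 change -0.48 ± 0.22, limma adjusted p = 0.190). Within a library the level of Ext1 was 0.696 to 0.800 times that of Ext2 in the controls and 1.10 to 1.86 times in K10-spastin. That these ranges are apart follows from the non-overlapping levels of both genes. Ext2 was the higher of the pair in each control and Ext1 in each K10-spastin library, an order that no scaling of a library can change.

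Transcripts for N-sulfation, the step that the later sulfations depend on, came here from a high and a low gene. Ndst1 (ENSMUSG00000054008), the main N-deacetylase and N-sulfotransferase of most tissues, read 40.9, 37.6 and 40.2 FPKM across the controls, against 22.8, 25.9 and 29.5 FPKM across K10-spastin. The controls were close together and all K10-spastin libraries lay below them (log2 change -0.59 ± 0.14, limma adjusted p = 0.0428). Ndst2 (ENSMUSG00000039308), known for heparin synthesis in mast cells, read 11.5, 7.33 and 7.66 FPKM across the controls, against 7.10, 9.34 and 8.19 FPKM across K10-spastin. Its groups overlapped (log2 change -0.08 ± 0.22, limma adjusted p = 0.841). Ndst3 and Ndst4 were listed at 0 in each library. The summed Ndst level was 44.9 to 52.4 FPKM in controls and 29.9 to 37.7 FPKM in K10-spastin, and Ndst1 held 78.0% to 84.0% of it in controls and 73.5% to 78.3% in K10-spastin. The call of Ndst1 was lost without control 1, 2 or 3 (limma adjusted p = 0.116, 0.133 and 0.159), without K10-spastin 2 (0.0857), and without control 1 and K10-spastin 1 together (0.0657). The same held with no filter (0.0609), with no trend in the variance (0.0545) and with replicate number added to the fit (0.133).

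Transcripts for the enzymes of 2-O- and 6-O-sulfation fell side by side. Hs2st1 (ENSMUSG00000040151), which sulfates the uronic acid, read 18.4, 18.8 and 19.8 FPKM across the controls, against 6.45, 9.16 and 9.77 FPKM across K10-spastin. Its level was 2.24-fold lower on the linear scale, with all K10-spastin libraries far below a narrow control range (log2 change -1.10 ± 0.19, limma adjusted p = 0.0171). Hs6st1 (ENSMUSG00000045216), which sulfates the glucosamine, read 54.1, 47.6 and 44.4 FPKM across the controls, against 17.8, 23.1 and 27.3 FPKM across K10-spastin. It was 2.14-fold lower, again with no overlap (log2 change -1.08 ± 0.18, limma adjusted p = 0.0170). The level of Hs2st1 relative to Hs6st1 was 0.340 to 0.446 in controls and 0.357 to 0.397 in K10-spastin, so the ratio overlapped between groups. Relative to Ext1, Hs6st1 was at 0.793 to 0.923 in controls and 0.262 to 0.418 in K10-spastin, Hs2st1 at 0.298 to 0.364 and 0.0946 to 0.149, and Ndst1 at 0.666 to 0.729 and 0.320 to 0.451. In each of these 3 ratios all K10-spastin libraries lay below all controls. This follows from the levels above, as Ext1 was higher and each of the other genes lower in every K10-spastin library. Hs6st2 and Hs6st3 were at most 0.530 FPKM in any library, so Hs6st1 held nearly all of the Hs6st level. Hs2st1 was not called without control 1, 2 or 3 (limma adjusted p = 0.0540, 0.0746 and 0.0872), nor was Hs6st1 (0.0568, 0.0701 and 0.0671), with log2 changes of -1.004 to -1.14 in these fits.

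Since Hs2st1 and Hs6st1 moved together, the 250 bases before their start sites are shown, from the RefSeq promoter table of GRCm38.p6, which held 7 of the 10 genes and no entry for Ext1, Ndst1 or Hs3st6. The genome build of the deposited table is not stated in the labels or the file. The Hs2st1 window is chr3:144570217-144570466 on the minus strand and the Hs6st1 window is chr1:36068150-36068399 on the plus strand. Capitals mark matches, on either strand, to the GC box GGGCGG, the CACCC box CCACCC, the AP-1 site TGANTCA, the TATA box TATAAA and the EGR site GCGNGGGCG.
Hs2st1: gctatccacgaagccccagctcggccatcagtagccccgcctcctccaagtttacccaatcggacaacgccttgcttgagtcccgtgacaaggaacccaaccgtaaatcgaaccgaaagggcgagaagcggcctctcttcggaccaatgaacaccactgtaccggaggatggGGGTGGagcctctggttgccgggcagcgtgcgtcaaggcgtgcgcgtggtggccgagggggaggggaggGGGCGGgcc
Hs6st1: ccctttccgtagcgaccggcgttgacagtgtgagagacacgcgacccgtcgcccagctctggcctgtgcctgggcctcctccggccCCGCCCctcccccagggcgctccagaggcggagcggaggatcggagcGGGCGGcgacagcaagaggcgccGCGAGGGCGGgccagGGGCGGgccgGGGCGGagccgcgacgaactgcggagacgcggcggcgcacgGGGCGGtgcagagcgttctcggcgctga
The GC box is the site of Sp1-type factors and the CACCC box that of many KLF factors. Hs2st1 held 1 GC box and 1 CACCC box. Hs6st1 held 6 GC boxes, 1 of them overlapping its single EGR match, and no CACCC box. The windows of Hs2st1 and Hs6st1 held 21 and 37 CpG pairs, against a median of 6 in 32851 promoters. Of those 32851 promoters, 32.7% held a GC box, 28.1% a CACCC box, 6.75% an AP-1 site, 12.4% a TATA box and 4.70% an EGR site. These matches describe letters and do not show binding.

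Hs3st6 had the largest log2 change of the 9 tested genes. It held most of the summed 3-O-sulfotransferase level in each control and in no K10-spastin library. Hs3st6 (ENSMUSG00000039628), a sulfotransferase of the last and rarest modification, read 21.4, 15.3 and 14.3 FPKM across the controls, against 0.662, 0.713 and 1.94 FPKM across K10-spastin. Its level was 15.4-fold lower on the linear scale, and the lowest control was far above the highest K10-spastin library (log2 change -3.13 ± 0.28, limma adjusted p = 0.00403). It ranked 11 among 11071 tested genes by size of fall, and was called in each of 17 other settings (adjusted p up to 0.0254). Hs3st1 (ENSMUSG00000051022), whose product makes the antithrombin-binding site of heparin, was listed at 0 in controls 1 and 2 and stood at 0.0499 FPKM in control 3. It stood at 2.48, 2.57 and 0.571 FPKM in K10-spastin 1 to 3. With a mean of 0.945 FPKM over the 6 libraries it lay just under the level for testing of 1 FPKM. With no filter its log2 change was 1.41 ± 0.32 (limma adjusted p = 0.0696), so it was not called there either.

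Of the other Hs3st genes, Hs3st3b1, which makes a different 3-O-sulfated site, read 3.73, 4.39 and 4.65 FPKM across the controls, against 2.74, 5.04 and 4.93 FPKM across K10-spastin. The groups overlapped (log2 change -0.04 ± 0.24, limma adjusted p = 0.935). Hs3st5 was at 0.0411 FPKM or 0 in controls, against 2.88, 0.307 and 0.106 FPKM in K10-spastin, high in K10-spastin 1 alone. The summed level of the 7 Hs3st genes was 25.2, 19.8 and 19.0 FPKM in controls and 8.82, 8.73 and 7.92 FPKM in K10-spastin. Hs3st6 held 75.1% to 84.9% of that sum in controls and 7.51% to 24.5% in K10-spastin. Hs3st3b1 held 14.8% to 24.5% and 31.0% to 62.2%, and Hs3st1 held at most 0.263% and then 7.21% to 29.5%. In K10-spastin 1 the largest share, 32.6%, was that of Hs3st5, and in K10-spastin 2 and 3 it was that of Hs3st3b1.

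**Figure D3:**
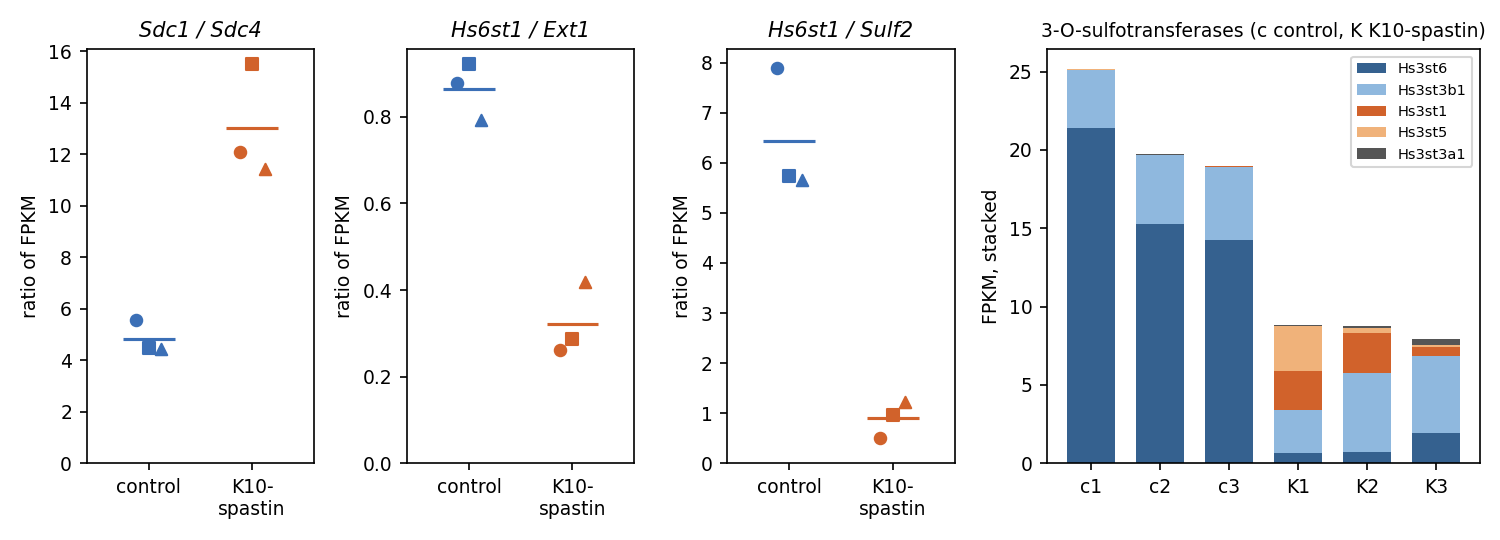
Ratios of FPKM for 3 gene pairs within each library (lines are group means, 1 marker shape per replicate number), and the FPKM of the Hs3st genes stacked per library, without Hs3st2 and Hs3st4, which were at or near 0. The ratio of Sdc1 to Sdc4 is higher and the ratios of Hs6st1 to Ext1 and to Sulf2 are lower in each K10-spastin library, and the Hs3st6 block fills most of each control bar. The separation of the ratios follows from that of the single genes.

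The carriers Sdc1 and Sdc4 parted. Sdc1 (ENSMUSG00000020592), syndecan-1, was the most abundant of the 10 genes and ranked 186 among all genes by its control mean. It read 477, 478 and 452 FPKM across the controls, against 870, 912 and 567 FPKM across K10-spastin. All K10-spastin libraries lay above a narrow control range, K10-spastin 3 least (log2 change 0.71 ± 0.19, limma adjusted p = 0.0567, not called). Without K10-spastin 3 the log2 change was 0.93 ± 0.13 and the gene was called (adjusted p = 0.0102). Sdc4 (ENSMUSG00000017009), syndecan-4, a co-receptor of integrins at focal adhesions, read 86.0, 107 and 102 FPKM across the controls, against 72.1, 58.8 and 49.7 FPKM across K10-spastin. It was 1.63-fold lower with no overlap (log2 change -0.71 ± 0.17, limma adjusted p = 0.0418).

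The ratio of Sdc1 to Sdc4 within a library, which scaling cannot change, was 5.55, 4.48 and 4.42 in controls and 12.1, 15.5 and 11.4 in K10-spastin. That the groups are apart in this ratio follows from the non-overlapping levels of both genes. Sdc1 held 80.7% to 83.9% of the summed syndecan level in controls and 91.4% to 93.5% in K10-spastin, and Sdc4 held 15.1% to 18.3% and 6.03% to 8.01%. Sdc2 and Sdc3 were at most 4.77 FPKM in any library. The summed syndecan level was 560 to 589 FPKM in controls and 620 to 975 FPKM in K10-spastin. The call of Sdc4 rested on small margins. It was lost under median-of-ratios scaling (log2 change -0.56, limma adjusted p = 0.140), without control 1, 2 or 3 (0.0714, 0.152 and 0.152), and without K10-spastin 2 or 3 (0.0858 and 0.0745). The same held with no filter (0.0711), with no trend in the variance (0.0568) and with replicate number added to the fit (0.111).

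The promoter windows of this pair are shown because its members moved apart. The Sdc1 window is chr12:8771146-8771395 on the plus strand and the Sdc4 window is chr2:164443189-164443438 on the minus strand, with capitals as above.
Sdc1: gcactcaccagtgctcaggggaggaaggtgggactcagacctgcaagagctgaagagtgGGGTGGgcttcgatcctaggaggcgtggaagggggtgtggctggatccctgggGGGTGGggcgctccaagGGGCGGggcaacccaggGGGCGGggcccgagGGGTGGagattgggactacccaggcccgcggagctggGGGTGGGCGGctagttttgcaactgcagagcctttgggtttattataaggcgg
Sdc4: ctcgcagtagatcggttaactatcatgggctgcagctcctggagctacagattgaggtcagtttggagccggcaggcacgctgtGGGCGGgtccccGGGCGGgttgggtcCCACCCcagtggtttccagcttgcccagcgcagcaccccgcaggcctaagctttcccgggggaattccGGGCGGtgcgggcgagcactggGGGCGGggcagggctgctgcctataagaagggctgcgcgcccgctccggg
Sdc1 held 3 GC boxes and 4 CACCC boxes, of which 1 GC box overlaps a CACCC box in the run GGGTGGGCGG. Sdc4 held 4 GC boxes and 1 CACCC box. Neither window held the letters of the AP-1, TATA or EGR motif, which says nothing of those factors. Sdc4 had 19 CpG pairs and Sdc1 had 10.

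Ordered by level, the control libraries ran from Sdc1 (469 ± 15.0 FPKM, SD, n = 3) and Sdc4 (98.3 ± 10.9) through Ext2 (74.1 ± 2.82), Ext1 (56.4 ± 4.97), Hs6st1 (48.7 ± 4.91), Ndst1 (39.6 ± 1.74), Hs2st1 (19.0 ± 0.751), Hs3st6 (17.0 ± 3.85) and Ndst2 (8.84 ± 2.33) to Hs3st1. Neighbours did not differ beyond their spread for Ext1 and Hs6st1 and for Hs2st1 and Hs3st6. In K10-spastin Ext1 (71.4 ± 8.14), Sdc4 (60.2 ± 11.3) and Ext2 (54.5 ± 15.9) overlapped with their neighbours below Sdc1 (783 ± 189). Ndst1 (26.05 ± 3.37) overlapped with Hs6st1 (22.7 ± 4.76), Hs2st1 (8.46 ± 1.77) with Ndst2 (8.21 ± 1.12), and Hs3st1 (1.87 ± 1.13) with Hs3st6 (1.10 ± 0.723), now the lowest.

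Within K10-spastin the 3 libraries differed in Spast more, on the linear scale, than in any of the 10 genes. Ndst1, Hs2st1, Hs6st1 and Hs3st6 were each lowest in K10-spastin 1, where Spast was highest, and highest in K10-spastin 3, where Spast was lowest. Sdc4 ran the other way, at 72.1 FPKM in K10-spastin 1 and 49.7 FPKM in K10-spastin 3. Ext1, Ext2, Ndst2, Hs3st1 and Sdc1 followed neither order, each being highest in K10-spastin 2. K10-spastin 1 also had the fewest genes at 1 FPKM, 10342 against 10901 and 10796 in K10-spastin 2 and 3. Without K10-spastin 1 the median log2 change of all tested genes was 0.008, against -0.09 with it. With 3 libraries the order of the genes beside Spast was not tested.

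Around these genes, 90 other genes of 9 lists were read, and 66 of them reached the level for testing. Of the 66, 8 rose and 3 fell, and their median log2 change was -0.15. Over all genes tested, 5.14% were called higher and 5.90% lower, with a median log2 change of -0.09, as above. Of 6 tested genes of the linker that starts a chain, none was called. Fam20b, the xylose kinase of the linker, and B3gat3, which adds its last sugar, had log2 changes of -0.48 ± 0.17 and 0.20 ± 0.18 (limma adjusted p = 0.101 and 0.488). Of 3 exostosin-like genes, Extl1, which can add N-acetylglucosamine, rose from 20.7, 22.2 and 15.7 FPKM to 41.3, 39.1 and 33.5 FPKM (log2 change 0.93 ± 0.17, adjusted p = 0.0208). Extl3, the chain initiator, had a change of -0.12 ± 0.21 (adjusted p = 0.736). Of the 2 tested chain-modifying genes beyond the 10, neither was called, with the C5-epimerase Glce at -0.44 ± 0.19 (adjusted p = 0.170).

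Among genes whose products act outside the cell, transcripts for an editing enzyme of 6-O-sulfation rose. Sulf2, an endosulfatase that removes 6-O-sulfate from finished chains, read 6.84, 8.30 and 7.86 FPKM across the controls, against 35.2, 23.8 and 22.4 FPKM across K10-spastin. The groups were far apart (log2 change 1.68 ± 0.21, limma adjusted p = 0.00741), and the gene was called in each of 17 other settings (adjusted p up to 0.0418). The level of Hs6st1, which adds the same sulfate, was 7.90, 5.73 and 5.65 times that of Sulf2 in controls and 0.507, 0.967 and 1.22 times in K10-spastin. That these values are apart follows from Hs6st1 being lower and Sulf2 higher in each K10-spastin library. Sulf1, the close relative of Sulf2, was at most 0.0823 FPKM in any library. Heparanase, Hpse, which cuts the chain, was at 1.96 to 3.15 FPKM in controls and 3.36 to 6.90 FPKM in K10-spastin (log2 change 0.66 ± 0.29, limma adjusted p = 0.164).

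Of 8 tested lysosomal genes of breakdown, Ids, the iduronate sulfatase, fell (log2 change -1.02 ± 0.26, limma adjusted p = 0.0473), and Sumf1, which activates sulfatases, lay at -0.19 ± 0.20 (adjusted p = 0.560). Among 11 tested genes of precursor supply, 1 was called and 9 lay below 0, with a median log2 change of -0.18. Over all genes tested, 11.0% were called and 58.4% lay below 0, with a median of -0.09. The called gene, Gfpt1, which opens the path to UDP-N-acetylglucosamine, rose from 10.03 to 11.5 FPKM in controls to 16.4 to 34.0 FPKM in K10-spastin (log2 change 1.12 ± 0.26, adjusted p = 0.0370). Papss1, which makes the sulfate donor, was among the highest of that list, at 61.6 to 74.7 FPKM in controls and 48.4 to 80.4 FPKM in K10-spastin (log2 change -0.04 ± 0.21, adjusted p = 0.910). Ugp2, which makes UDP-glucose, had a change of -0.09 ± 0.14 (adjusted p = 0.715). The largest fall of the list, not called, was that of Ugdh (log2 change -1.26 ± 0.34, limma adjusted p = 0.0571). Ugdh lies outside the naming rule and was chosen after its values were seen. Among 10 tested genes of chondroitin and dermatan sulfate, the other sulfated chains built on the same linker, none was called. Chst15 and Dsel, the most abundant of them, lay at -0.31 ± 0.16 and -0.37 ± 0.21 (adjusted p = 0.228 and 0.275).

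Of 12 tested other carriers of heparan sulfate, 1 was called higher and 2 lower. Of the 12, 9 lay below 0, with a median log2 change of -0.60, against 58.4% and -0.09 over all genes tested. Col18a1, a collagen of basement membranes that carries heparan sulfate, read 43.7, 27.5 and 41.4 FPKM across the controls, against 95.5, 97.5 and 67.0 FPKM across K10-spastin (log2 change 1.19 ± 0.23, limma adjusted p = 0.0223). Gpc3, a glypican held to the membrane by a lipid anchor, read 37.6, 34.7 and 37.6 FPKM across the controls, against 11.3, 20.4 and 18.3 FPKM across K10-spastin (log2 change -1.12 ± 0.22, adjusted p = 0.0242). Gpc4, a second glypican, averaged 6.48 ± 0.931 FPKM in controls and 1.94 ± 1.23 FPKM in K10-spastin (SD, n = 3; log2 change -1.45 ± 0.36, limma adjusted p = 0.0459). All 3 had groups that did not overlap, as did each of the 1222 called genes. Gpc1, the most abundant glypican, ranged from 89.5 to 149 FPKM in controls and from 56.0 to 127 FPKM in K10-spastin, so its groups overlapped (log2 change -0.64 ± 0.33, adjusted p = 0.227). Cd44, a hyaluronan receptor with isoforms that carry heparan sulfate, had a change of 0.74 ± 0.24 (adjusted p = 0.0822) and was called without K10-spastin 3 (1.01, adjusted p = 0.0110). The largest falls of the list, not called, were those of Agrn and Hspg2. Their log2 changes were -1.59 ± 0.49 and -1.57 ± 0.49 (limma adjusted p = 0.0755 and 0.0793). Both genes lie outside the naming rule and were chosen after their values were seen.

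Of 12 tested partners and shedding factors of syndecans, 4 rose and none was called lower. Sdcbp2, syntenin-2, a relative of the syndecan-binding adaptor syntenin-1, read 0.159, 0.804 and 0.734 FPKM across the controls, against 61.9, 20.1 and 58.9 FPKM across K10-spastin (log2 change 4.81 ± 0.44, limma adjusted p = 0.00403). Its control mean of 0.566 FPKM was below 1, so it reached the level for testing through K10-spastin alone. Sdcbp, which codes for syntenin-1, stood at 25.2 to 31.0 FPKM in controls and 23.6 to 26.6 FPKM in K10-spastin, and was not called. It lies outside the naming rule and was chosen after its values were seen. Pdcd6ip, the ALIX protein that works with syntenin in exosome formation, rose from 114 ± 1.43 to 166 ± 13.2 FPKM (SD, n = 3), and Cask, a scaffold that binds syndecan tails, from 24.8 ± 1.80 to 39.1 ± 2.41 FPKM (limma adjusted p = 0.0307 and 0.0279). Timp3, an inhibitor of the ADAM and MMP sheddases and not a sheddase, read 1.64, 4.22 and 3.84 FPKM across the controls, against 48.5, 21.3 and 15.6 FPKM across K10-spastin (log2 change 2.70 ± 0.44, adjusted p = 0.0161). Tiam1 and Gipc1, the most abundant of the list, lay at -0.23 ± 0.12 and 0.05 ± 0.13 (adjusted p = 0.250 and 0.841).

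**Figure D4:**
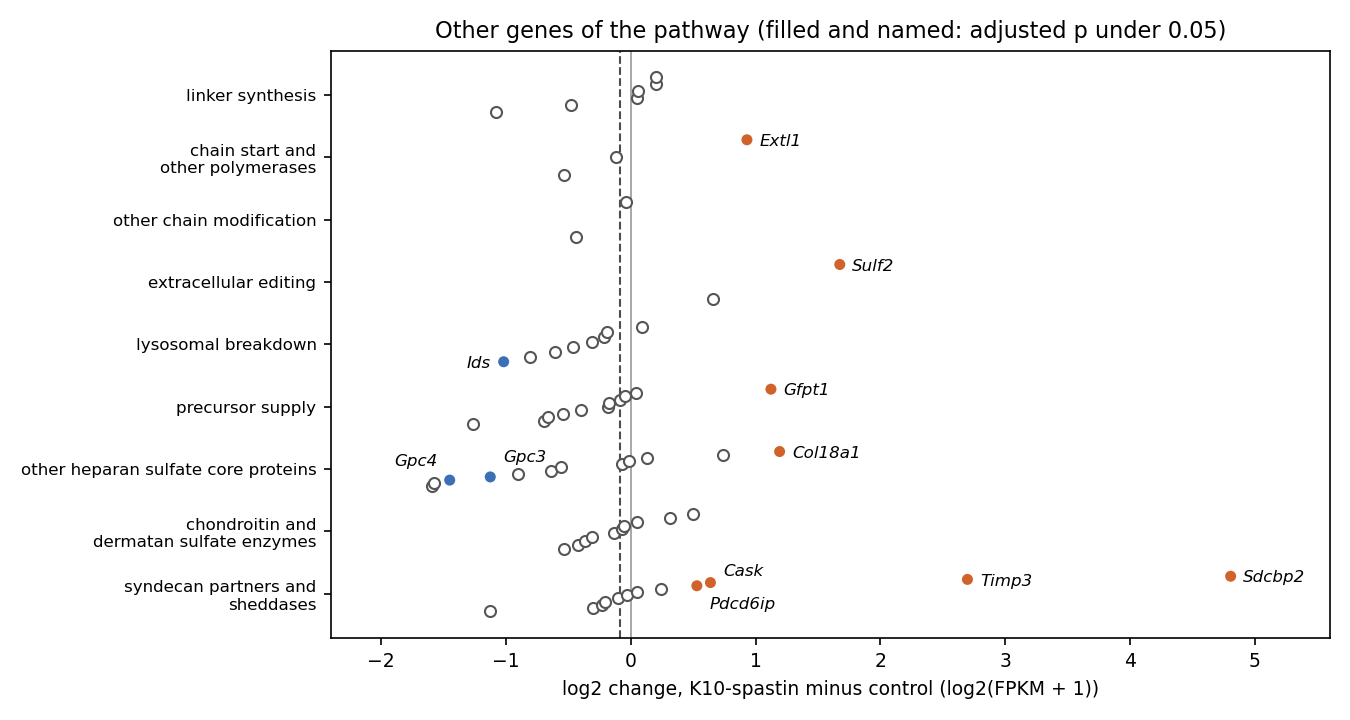
Log2 change of the 66 tested genes of 9 further lists, K10-spastin minus control, 1 point a gene and 1 row a list, filled and named where the limma adjusted p is under 0.05 (orange higher, blue lower). Sdcbp2 at 4.81, Timp3 at 2.70 and Sulf2 at 1.68 lie farthest to the right, and the dashed line is the median of all tested genes.

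Of the 11 called genes of these lists, Sulf2 and Sdcbp2 were called in each of 17 other settings. Each of the other 9 lost its call in at least 2. Cask, Pdcd6ip, Extl1, Gfpt1, Gpc4 and Ids were not called without control 1, 2 or 3 or without K10-spastin 2 (limma adjusted p = 0.0560 to 0.157). Gpc3 was not called without control 1, 2 or 3 (0.0767 to 0.102), Col18a1 without control 2 or 3 or K10-spastin 2 (0.0597 to 0.0770), and Timp3 without control 2 or 3 (0.0503 and 0.0617). Leaving libraries out also left fewer samples to each fit. Gpc4 and Ids were also not called at pseudocounts of 0.1 or 0.5 (0.0529 to 0.0716), and Pdcd6ip was not under quantile normalization (0.0538). With no filter Gfpt1, Gpc3, Gpc4 and Ids were not called (0.0501 to 0.104), nor was Pdcd6ip with no trend in the variance (0.0548). With replicate number added to the fit, all of the 9 but Timp3 lost their calls (0.0510 to 0.117). Extl1, Gfpt1 and Col18a1 also did without control 1 and K10-spastin 1 together (0.0533 to 0.0687).

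Marker genes of the sorted layer and of other cells were read beside these results. Of all genes tested, 5.14% were called higher, 5.90% were called lower and 58.4% lay below 0, as above. Of 5 spinous markers, Krt10 fell, and 3 lay below 0. Krtdap and Dsc1 went the other way, at 0.21 ± 0.23 and 0.61 ± 0.33, and were not called (limma adjusted p = 0.564 and 0.244). The summed level of the 5, mostly Krt1 and Krt10, was 50149 to 66825 FPKM in controls and 29767 to 43444 FPKM in K10-spastin. Of 6 basal markers, Krt15 fell, and 4 lay below 0. Krt14 and Itgb4 went the other way, at 0.07 ± 0.53 and 0.38 ± 0.52, and were not called (limma adjusted p = 0.939 and 0.660). The sums of the 6 were 4083 to 7171 FPKM in controls and 2495 to 4723 FPKM in K10-spastin, and overlapped. Of 3 granular markers in the table, Ivl rose, and the sums of all 3, mostly Lor, were 1241 to 5311 FPKM in controls and 3206 to 14811 FPKM in K10-spastin. Of 5 hair placode markers, Lhx2 and Lef1 fell, while Sox9 had a log2 change of 1.55 ± 0.56 that was not called (limma adjusted p = 0.110). The sums of all 5 were 11.5 to 40.0 FPKM in controls and 22.6 to 56.3 FPKM in K10-spastin, where Sox9 alone stood at 21.3 to 55.8 FPKM. Of 6 fibroblast markers, Dcn fell, and their sums of 6.44 to 42.3 FPKM in controls and 0.791 to 3.03 FPKM in K10-spastin did not overlap. Endothelium markers summed to 0.140 to 0.246 FPKM in controls and 0.1998 to 0.299 FPKM in K10-spastin, and none of the 3 reached the level for testing. Sums of immune markers were 4.19 to 10.7 and 12.8 to 39.3 FPKM, nearly all from Cd68, with Cd207 and Cd3e at 0 in each library. Only Cd68 of these 5 was tested, and it was not called (log2 change 1.65 ± 0.46, limma adjusted p = 0.0610). Those of melanocytes were 3.13 to 13.5 and 1.15 to 21.9 FPKM, with 2 of 4 tested and neither called. The part of these cell types in the changes of heparan sulfate genes was not tested.

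In the annotation used for checks, exons of Hs6st1 overlapped the opposite-strand gene Gm37335, those of Sulf2 overlapped Ncoa3 and those of Timp3 overlapped Syn3. Whether fragments were counted by strand is not stated, and reads of these pairs may be shared. Ncoa3 stood at 16.3 to 28.8 FPKM and Syn3 at 0.0403 to 0.761 FPKM. Sdc1 has 2 similar copies, Gm16407 (95.2% identity over 468 bases) and Gm14724, both listed at 0 in each library, and a stretch of Hs6st1 is similar to Cd40 (90.04% over 271 bases), which was at most 1.91 FPKM.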

How the data were processed

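The deposited table holds FPKM as the authors computed it, 1 column per library, with 35275 Ensembl identifiers, of which 34490 matched a symbol. The submitters' processing notes name CASAVA and TopHat2, and no source used here gives the counter, genome build, annotation or strand setting. Depth was read from the step size of low values over 14953 genes with 1 transcript in GENCODE M21; 90.8% to 91.7% of values up to 20 fragments were then whole within 0.05. A gene was tested where its mean reached 1 FPKM, on log2(FPKM + 1) with limma 3.58.1 in R 4.3.3 (lmFit, eBayes with a trend, two-sided, Benjamini-Hochberg), without covariates. An exact permutation test of 3 against 3 cannot go below 0.1. The 10 genes and the lists were chosen with earlier results of these data known. The naming rule took the 10 genes, every called gene of the other lists and the 2 highest tested genes of each. Alternatives covered pseudocounts, filters, scalings, variance models, the replicate block and libraries left out. Copies were sought with BLAST 2.17.0 (90% identity or more over 200 bases or more). Tables and plots were made in Python 3.11.15 with pandas 2.3.3, numpy 2.4.6 and, for plots, matplotlib 3.10.9. The marker Flg was not analysed here. A gene that the naming rule takes is not reported here.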

Additional observations from a re-analysis of the deposited data

How the results depend on the processing

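Of 5 genes called lower among the 10, Hs3st6 was called in each of 17 other settings, Hs2st1 and Hs6st1 in 13, Ndst1 in 9 and Sdc4 in 8. The count of these genes called lower was 3 with no filter, 3 with no trend in the variance and 1 with the replicate block, and 1 to 5 with single libraries left out, where 0 or 1 were called higher. With array weights 1 was called higher, which was Ext1 (limma adjusted p = 0.0499). Without control 1 and K10-spastin 1 together 4 were called lower. Over all genes, 569 higher and 653 lower became 319 and 348 with no filter, 1535 and 1771 with array weights, 274 and 218 with the replicate block, 414 lower with a filter at 5 FPKM, and 113 to 691 higher and 32 to 701 lower with single libraries left out. Under median-of-ratios scaling 795 were higher and 655 lower, and under quantile normalization 607 and 888, so the share of higher calls moved with scaling. Median-of-ratios scaling moved the median log2 change of all genes from -0.09 to 0.04. For the other genes of the pathway, 8 higher and 3 lower became 3 and 0 with the replicate block, 2 to 9 and 0 to 5 with single libraries left out, 5 higher without control 1 and K10-spastin 1 together, 11 lower with array weights, 5 lower under quantile normalization, 1 lower at pseudocounts of 0.1 and 0.5 and with a filter at 5 FPKM, and 0 lower with no filter. Each fit with libraries left out had fewer samples, and causes of the other moves were not tested. Replicate numbers are shared between groups only as numbers: deviations from group means of samples with the same number had correlations of -0.13, -0.38 and -0.05 across genes, and no library matched best with its own number. The block also ended the calls of Ndst1, Hs2st1, Hs6st1 and Sdc4 (adjusted p = 0.133, 0.0510, 0.0560 and 0.111). Some log2 changes that were not called in the fit reported changed sign. Under median-of-ratios scaling these were Ndst2 at 0.055, Extl3 at 0.015, Hs3st3b1 at 0.077, Papss1 at 0.10 and Ugp2 at 0.060. Under quantile normalization these were Ndst2 at 0.030, Hs3st3b1 at 0.13 and Gipc1 at -0.052. With array weights these were Ndst2 at 0.087, Extl3 at 0.053, Hs3st3b1 at 0.10, Sumf1 at 0.022, Papss1 at 0.13 and Ugp2 at 0.010. Without control 1 and K10-spastin 1 together these were Ndst2 at 0.20, Extl3 at 0.14, Hs3st3b1 at 0.12, Sumf1 at 0.00059, Papss1 at 0.21 and Ugp2 at 0.032. With single libraries left out the values ran from -0.18 to 0.11 for Ndst2, from -0.25 to 0.075 for Extl3, from -0.16 to 0.19 for Hs3st3b1, from -0.34 to 0.0050 for Sumf1, from -0.17 to 0.19 for Papss1 and from -0.039 to 0.16 for Gipc1. Depth limits what can be said of Hs3st1 and Hs3st5, whose control values were at or near 0.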
